A study of Homo sapiens with 12 samples.

Results

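The 38 genes described here encode heat shock proteins that work outside the endoplasmic reticulum, the cochaperones that assist them, and the heat shock factors HSF1 and HSF2. They were listed by name, by a rule that uses no measured value, although earlier results of these data were known. All 38 were found among the 54127 genes counted in the files. The list is mostly cytosolic, but TRAP1, HSPA9, HSPD1 and HSPE1 encode chaperones of mitochondria, so the word cytosolic does not hold for these 4. RNA was sequenced from C4-2 cells, an established human prostate cancer line derived from LNCaP. The cells were reverse transfected at 50 nM with a pool of siRNAs against CHKA, which encodes choline kinase alpha (label SiCHKA, here siCHKA), or with a nontargeting siRNA (label SiNTCONTROL, here siNT), and both groups were kept in RPMI medium with 10% serum. Each group had 6 samples. The labels give no time after transfection. The study calls its replicates biological, but speaks of triplicate experiments for its gene comparison and of 6 replicates for single genes. Neither it nor the labels say whether the samples came from separate cultures. The p-values therefore measure the spread between these samples, which may be technical. The data come from 1 cell line and 1 siRNA pool, with no second siRNA or rescue among the samples used here.

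HSP70 binds unfolded segments of client proteins and hands some of them to HSP90, which completes the folding of steroid receptors, kinases and other signaling proteins. Cochaperones set the order and rate of these steps: BAG proteins release nucleotide from HSP70, STIP1 (HOP) bridges HSP70 and HSP90, and PTGES3 (p23) holds HSP90 in its closed, client-bound state. Steroid receptors as a class need this machinery to bind hormone. Many of the chaperone genes are induced by HSF1, a transcription factor that binds heat shock elements, which are inverted repeats of the bases GAA.

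The knockdown was seen in all 6 siCHKA samples. CHKA was measured at 1.91 to 4.67 CPM (reads on the gene scaled to a common library size, with TMM scaling) with a median of 2.31 in siCHKA, and at 36.7 to 43.3 CPM with a median of 41.6 in siNT. Reads counted on genes ranged from 10685184 to 24246055 per sample, at which 3 counts correspond to 0.124 to 0.281 CPM (counting error only). Samples stood apart within both groups. Among siCHKA samples, the pairwise chi-square per degree of freedom was 4.05 to 9.50 within replicates 1, 3 and 5, 2.39 to 4.09 within replicates 2, 4 and 6, and 12.5 to 24.9 across these sets. Pairs of siNT samples spanned 2.51 to 30.9. The share of reads on no annotated gene was 6.70 to 8.54% in siCHKA and 5.49 to 6.63% in siNT, and the part of this gap in the results was not tested. The luminal prostate markers were expressed in all samples, with a summed level of 4557 to 5713 CPM over the 9 genes in siCHKA and 5540 to 7044 CPM in siNT, whereas the 3 basal markers summed to 1.57 to 2.10 CPM in siCHKA and 0.981 to 1.46 CPM in siNT. Of these, KRT5 and TP63 had 1 and 3 reads in all 12 samples together, and KRT14 had 314 reads and was higher in siCHKA (log2 fold change 0.58, adjusted p = 0.00247). Of the 5 stromal markers the sum was 26.0 to 33.3 CPM in siCHKA and 15.7 to 22.2 CPM in siNT, most of it COL1A1, which encodes a chain of type I collagen, while its partner chain COL1A2 had 10 reads in all. The stromal list went both ways, with COL1A1 and ACTA2 higher in siCHKA (0.82 and 0.89 on the log2 scale) and PDGFRB lower (-1.46). The endothelial markers summed to 1.13 to 1.86 CPM in siCHKA and 2.05 to 3.65 CPM in siNT, and the leukocyte markers to 0.242 to 0.644 and 0.373 to 0.719 CPM, with CD3E at 0 throughout. The part of these marker differences in the results was not tested.

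The promoters of the members were searched for heat shock elements. RefSeq promoter windows (GRCh38.p14, 250 bases before to 50 bases after each start) were given for 30 of the 38 members and searched for 3 adjacent units, GAANNTTCNNGAA or TTCNNGAANNTTC, each of which is the reverse complement of the other, so that both strands were covered. The element was found in 5 of the 30 members, HSP90AA1, HSP90AB1, HSPA8, HSPD1 and CHORDC1. By window, 5 of the members' 44 windows held it, against 0.490% of all 35116 windows. HSP90AA1 and HSPD1 had it in 1 of 2 windows each and HSP90AB1 in 1 of 3. A shorter element of 2 units, contained in the longer one, was present in 13 of the 30 members. It was in 13 of their 44 windows and in 13.5% of all windows. The stretches that hold the 3-unit elements follow, read along the strand of the gene, with the GAA and TTC units in capitals.
HSP90AA1 promoter, chr14:102087105-102087147, minus strand: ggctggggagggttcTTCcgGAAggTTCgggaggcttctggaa
HSP90AB1 promoter, chr6:44247763-44247858, plus strand: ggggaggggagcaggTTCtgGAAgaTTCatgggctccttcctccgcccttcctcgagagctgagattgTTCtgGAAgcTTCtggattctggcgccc
HSPA8 promoter, chr11:123062164-123062381, minus strand: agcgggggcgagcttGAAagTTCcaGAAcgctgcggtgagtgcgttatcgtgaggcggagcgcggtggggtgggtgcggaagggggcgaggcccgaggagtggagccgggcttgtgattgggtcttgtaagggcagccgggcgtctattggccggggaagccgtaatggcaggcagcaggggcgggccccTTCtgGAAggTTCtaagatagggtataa
HSPD1 promoter, chr2:197500053-197500090, minus strand: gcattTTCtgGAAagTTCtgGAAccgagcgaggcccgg
CHORDC1 promoter, chr11:90223072-90223124, minus strand: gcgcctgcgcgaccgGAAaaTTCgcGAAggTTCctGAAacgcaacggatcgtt
The HSP90AB1 and HSPA8 stretches each hold the element at 2 places, HSPD1 has 4 adjacent units and CHORDC1 has 5. All 5 genes were lower in siCHKA, by 0.29 to 0.59 on the log2 scale with a median log2 fold change of -0.48, and each had its 6 siCHKA samples below its 6 siNT samples, where 30.1% of all 14501 tested genes were called lower, 32.1% higher, and 21.5% lay wholly below. Of the other 25 members with a window, 12 were lower and 3 higher, with a median log2 fold change of -0.16. The motif search was added after the fold changes were known, so these counts are a description. Only exact matches were counted, so an element with a changed base would be missed. The part of the element in the falls was not tested. BAG1 and BAG3, the members with the deepest falls, had no 3-unit element in their windows. HSPA14, BAG4, ST13, STUB1, FKBP4, PPP5C, CDC37L1 and HSF1 had no window.

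The chaperone genes were lower more often than higher in siCHKA. All 38 passed the expression filter, and at an adjusted p-value below 0.05 (edgeR's quasi-likelihood test with Benjamini-Hochberg adjustment over 14501 genes) 22 were lower, 4 were higher and 12 did not pass the threshold. Of all tested genes, 30.1% were lower and 32.1% were higher, so the share of members lower, 57.9%, lay above the background and the share higher, 10.5%, below it. The median log2 fold change was -0.23 over the members and 0.03 over all tested genes. When a log2 fold change of at least 0.5 in size was also required, 10 members were lower and 0 higher, against 14% and 16.2% of all tested genes. In 18 members every siCHKA sample was below every siNT sample and in 3 every siCHKA sample was above, against 21.5% and 19.1% of all tested genes. Without the 4 mitochondrial chaperones, 20 of 34 were lower and 4 higher. In bulk RNA, fewer cells of a type and less RNA per cell cannot be told apart, and CPM show shares of the library rather than amounts per cell.

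**Figure D1:**
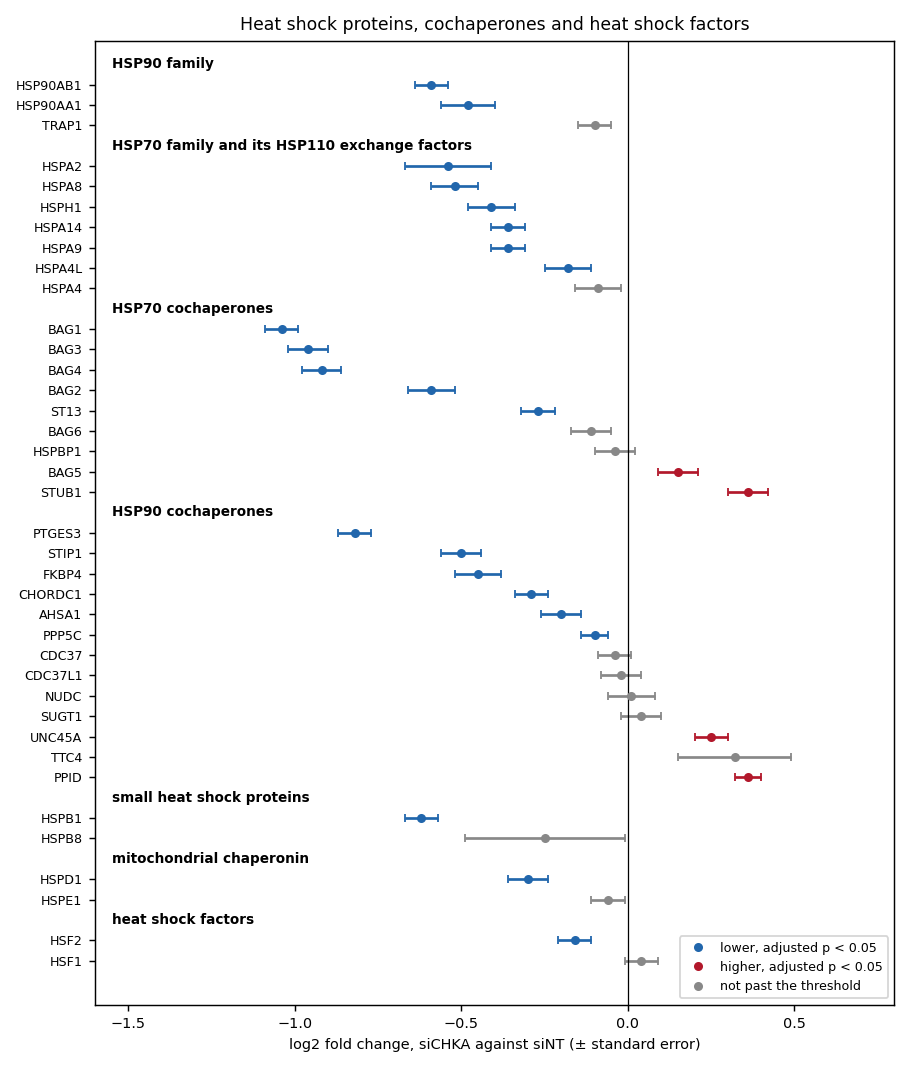
Log2 fold change of siCHKA against siNT for the 38 genes by role, as points with standard errors from 6 samples per group (blue lower, red higher, gray not past an adjusted p-value of 0.05). BAG1 lies farthest to the left at -1.04, and PPID and STUB1 farthest to the right among the called genes, both at 0.36.

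Together the 38 genes took 1.88 to 2.04% of all reads on genes in siNT, with a median of 1.97%, and 1.54 to 1.72% in siCHKA, with a median of 1.62%. The groups did not overlap, and a few abundant transcripts made up most of both totals. HSP90AA1, HSPA8 and HSP90AB1 alone held 52.6% of the members' reads in siNT and 49.1% in siCHKA. Per kilobase of transcript, HSPA8 was the most abundant member in siNT at 1633 ± 176 CPM per kilobase (SD, n = 6). HSP90AB1 followed at 1257 ± 35.4 and HSP90AA1 at 1244 ± 74.8 CPM per kilobase, and the samples of these neighbors overlapped. HSPD1, HSPB1, HSPE1 and PTGES3 came next at 904, 707, 505 and 473 CPM per kilobase, of which HSPE1 and PTGES3 overlapped. At the other end stood HSPA2, HSPB8 and TTC4 at 1.42, 0.700 and 0.453 CPM per kilobase. The members thus spanned over 3 orders of magnitude, and the falls were found both among the most abundant genes and among scarcer genes such as BAG1, BAG2, BAG3 and BAG4.

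**Figure D2:**
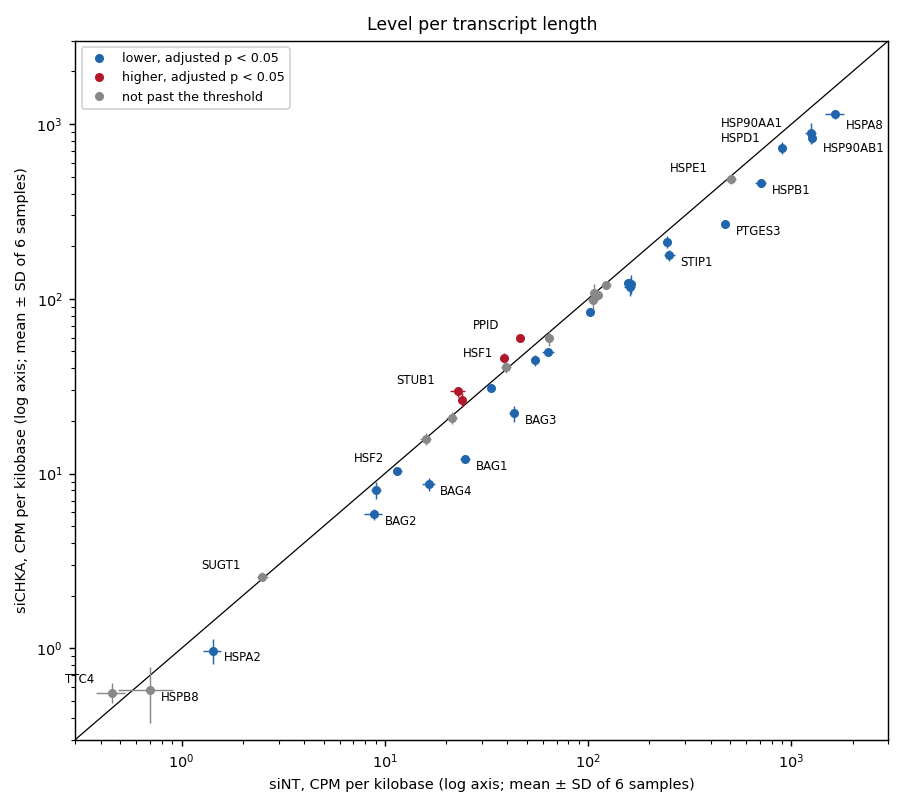
Mean level of each gene in siNT (x axis) and siCHKA (y axis) in CPM per kilobase of transcript, both on log axes, with bars of 1 SD over 6 samples and the line of equal levels. HSPA8, HSP90AB1 and HSP90AA1 sit at the top right under the line, and BAG1, BAG2, BAG3 and BAG4 lie under it farther down the range.

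Both cytosolic HSP90 genes fell. HSP90AA1 (ENSG00000080824, chromosome 14, 102080742 to 102139699, minus strand, GRCh38), the stress-inducible isoform, was measured at 2464 to 3391 CPM with a median of 2866 in siCHKA and at 3765 to 4440 CPM with a median of 3960 in siNT. Every siCHKA sample lay below every siNT sample, and replicates 2, 4 and 6 were the lowest. HSP90AA1 had a log2 fold change of -0.48 ± 0.08 (± is the standard error for log2 values, adjusted p = 5.79e-05). HSP90AB1 (ENSG00000096384, chromosome 6, 44246166 to 44253888, plus strand), the constitutive isoform, was measured at 1946 to 2263 CPM with a median of 2140 in siCHKA and at 3116 to 3317 CPM with a median of 3200 in siNT. Its groups were separated by a gap wider than the spread within either of them, and siCHKA held 66.3% of the siNT level (log2 fold change -0.59 ± 0.05, adjusted p = 3.94e-08). The ratio of HSP90AA1 to HSP90AB1 per length was 1.07 ± 0.0823 (SD, n = 6) in siCHKA and 0.989 ± 0.0359 (SD, n = 6) in siNT, and the ranges of 0.975 to 1.19 and 0.956 to 1.06 overlapped. TRAP1, the mitochondrial HSP90, had a log2 fold change of -0.10 at an adjusted p of 0.107, and its groups overlapped.

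Of the 7 members of the HSP70 family and its HSP110 exchange factors, 6 fell, against 30.1% of all tested genes, and HSPA4 did not pass the threshold. HSPA8 (ENSG00000109971, chromosome 11, 123057489 to 123063230, minus strand), the constitutive HSC70, was measured at 2384 to 2845 CPM with a median of 2577 in siCHKA and at 3148 to 4148 CPM with a median of 3769 in siNT. Here the siNT samples were the more variable, with replicates 5 and 6 the lowest, but all stayed above the highest siCHKA sample. It fell by 0.52 ± 0.07 on the log2 scale (adjusted p = 7.07e-06). HSPA2, an HSP70 best known from the testis, was scarce, at 1.89 to 3.09 CPM with a median of 2.39 in siCHKA and 3.08 to 4.05 CPM with a median of 3.48 in siNT. The 2 groups just overlapped, and HSPA2 fell by 0.54 ± 0.13 on the log2 scale (adjusted p = 0.00159), a call that was lost when only replicates 1 to 3 were used (-0.33, adjusted p = 0.164).

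HSPA14, a ribosome-bound HSP70, and HSPA9, the mitochondrial HSP70 (mortalin), both had a log2 fold change of -0.36, without overlap of the groups (adjusted p = 1.18e-05 and 5.31e-06). HSPH1 and HSPA4 encode HSP110 proteins that exchange nucleotide on HSP70. HSPH1 fell by 0.41 on the log2 scale (adjusted p = 0.000105), whereas HSPA4 had a log2 fold change of -0.09 at an adjusted p of 0.277. The ratio of HSPH1 to HSPA4 per length was 1.20 to 1.29 in siCHKA and 1.47 to 1.65 in siNT, without overlap. The pair was chosen after its fold changes were seen, so the ratio is a description and no p-value is given. The testis-enriched HSP110 HSPA4L fell by 0.18 (adjusted p = 0.0276) with overlapping groups, and the call held in 17 of 24 alternatives. The fits that lost it included those without siCHKA replicate 2, 4 or 6 or siNT replicate 5.

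The deepest falls were those of BAG genes, which encode nucleotide exchange factors of HSP70. BAG1 (ENSG00000107262, chromosome 9, 33247820 to 33264720, minus strand), whose product also binds BCL2 and steroid receptors, was measured at 44.6 to 47.9 CPM with a median of 46.4 in siCHKA and at 88.3 to 101 CPM with a median of 96.6 in siNT. The siCHKA samples were tightly grouped at 48.7% of the siNT level (log2 fold change -1.04 ± 0.05, adjusted p = 8.17e-12). BAG3 (ENSG00000151929, chromosome 10, 119651380 to 119677819, plus strand), which links HSP70 and small heat shock proteins to selective autophagy, was measured at 52.1 to 68.1 CPM with a median of 54.9 in siCHKA and at 102 to 117 CPM with a median of 110.5 in siNT. Its siCHKA replicate 3 stood above the other 5, and still well below the siNT samples (log2 fold change -0.96 ± 0.06, adjusted p = 7.94e-10).

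BAG4 (SODD), which keeps death receptors silent, was measured at 33.3 to 41.5 CPM with a median of 35.7 in siCHKA and at 65.0 to 77.6 CPM with a median of 66.4 in siNT, without overlap (log2 fold change -0.92 ± 0.06, adjusted p = 2.04e-09). BAG2, an inhibitor of the ubiquitin ligase CHIP, was measured at 34.9 to 42.6 CPM with a median of 39.5 in siCHKA and at 49.3 to 64.1 CPM with a median of 61.4 in siNT. The 2 lowest siNT samples were replicates 5 and 6, both above every siCHKA sample (log2 fold change -0.59 ± 0.07, adjusted p = 1.23e-06). The BAG family did not move together: BAG5 had a log2 fold change of 0.15 at an adjusted p of 0.0364 with overlapping groups, a call that was lost in 13 of 24 alternatives, and BAG6, whose product handles membrane proteins in the cytosol, had one of -0.11 (adjusted p = 0.117).

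Of the other HSP70 cochaperones, STUB1, which encodes CHIP itself, was measured at 35.6 to 42.2 CPM in siCHKA and at 25.9 to 32.7 CPM in siNT. All siCHKA samples were above all siNT samples (log2 fold change 0.36 ± 0.06, adjusted p = 0.000116). ST13 (HIP), which stabilizes HSP70 bound to a client, fell by 0.27 on the log2 scale (adjusted p = 8.78e-05). HSPBP1, another exchange factor, had a log2 fold change of -0.04 at an adjusted p of 0.595. In all, 5 of the 9 HSP70 cochaperones were lower and 2 higher (55.6% and 22.2%), against 30.1% and 32.1% of all tested genes.

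Of the 13 HSP90 cochaperones, 6 were lower (46.2%) and 2 higher (15.4%), against 30.1% and 32.1% of all tested genes, and 5 did not pass the threshold. PTGES3 (ENSG00000110958, chromosome 12, 56663341 to 56688408, minus strand), the p23 of mature steroid receptor complexes, was measured at 474 to 542.5 CPM with a median of 513.5 in siCHKA and at 856 to 940.1 CPM with a median of 898 in siNT. The groups were far apart, siCHKA holding 56.7% of the siNT level (log2 fold change -0.82 ± 0.05, adjusted p = 2.6e-10). STIP1 (ENSG00000168439, chromosome 11, 64185272 to 64204543, plus strand), the HSP70 to HSP90 adaptor, was measured at 352 to 409.7 CPM with a median of 382 in siCHKA and at 477.5 to 576 CPM with a median of 541 in siNT. Every siCHKA sample was below the lowest siNT sample, replicate 6 (log2 fold change -0.50 ± 0.06, adjusted p = 1.26e-06).

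Among the cochaperones that bind HSP90 through tetratricopeptide repeats, the immunophilin members FKBP4 and PPID moved in opposite directions. FKBP5 (FKBP51), an immunophilin of the further list described below, fell by 0.31 on the log2 scale (adjusted p = 0.0116) with overlapping groups. FKBP4 (FKBP52), which favors hormone binding by steroid receptors, fell by 0.45 on the log2 scale (adjusted p = 3.23e-05). PPID (cyclophilin 40) rose, with a range of 104 to 117.5 CPM and a median of 107 in siCHKA and of 80.8 to 88.95 CPM with a median of 84.7 in siNT, without overlap (log2 fold change 0.36 ± 0.04, adjusted p = 2e-06). The phosphatase PPP5C fell by 0.10 (adjusted p = 0.0347) with no overlap of the groups, and this small change was past the threshold in 10 of 24 alternatives. TTC4 had a log2 fold change of 0.32 at an adjusted p of 0.113, based on 246 reads in all 12 samples.

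AHSA1, which stimulates the ATPase of HSP90, fell by 0.20 (adjusted p = 0.00392) with overlapping groups, and CHORDC1, an HSP90 partner induced by stress, by 0.29 (adjusted p = 0.00016) without overlap. UNC45A, a myosin chaperone that binds HSP90, rose by 0.25 (adjusted p = 0.000343), its siCHKA samples at 138 to 165 CPM lying above the siNT samples at 120.3 to 131 CPM, a call that was lost when only replicates 4 to 6 were used (0.18, adjusted p = 0.0725). The kinase adaptor CDC37, its relative CDC37L1, SUGT1, which acts in kinetochore assembly and innate immunity, and NUDC, a dynein-associated cochaperone, had log2 fold changes between -0.04 and 0.04, with adjusted p-values from 0.538 to 0.897. For CDC37 the 2 group means were 194 and 199 CPM.

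Of the small heat shock proteins, HSPB1 (HSP27; ENSG00000106211, chromosome 7, 76302673 to 76304295, plus strand), an ATP-independent holdase, was measured at 336 to 390.2 CPM with a median of 355 in siCHKA and at 509 to 608 CPM with a median of 536 in siNT. The groups did not overlap and siCHKA held 65.0% of the siNT level (log2 fold change -0.62 ± 0.05, adjusted p = 3.45e-08). HSPB8, the partner of BAG3, was scarce, with 238 reads in all 12 samples, and its log2 fold change of -0.25 did not pass the threshold (adjusted p = 0.383).

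HSPD1 and HSPE1 encode the mitochondrial chaperonin HSP60 and its lid HSP10 and lie head to head on chromosome 2, where they share exonic bases in GENCODE release 44. HSPD1 fell by 0.30 on the log2 scale (1646 ± 131 CPM in siCHKA and 2028 ± 81.8 CPM in siNT, SD, n = 6, adjusted p = 0.000247), while HSPE1 had a log2 fold change of -0.06 at an adjusted p of 0.338 with overlapping groups. The ratio of HSPD1 to HSPE1 per length was 1.32 to 1.66 in siCHKA and 1.67 to 1.87 in siNT, groups that a narrow margin separated. This pair too was chosen after its fold changes were seen, and no p-value is given for the ratio. The 4-unit element shown above for HSPD1 ends 55 bases from the HSPE1 start of GENCODE release 44, and the RefSeq window of HSPE1 begins beyond it. Reads on the 21 counted pseudogenes of HSPE1 came to 8.34% of its own reads, against 1.99% for SUGT1, 1.30% for HSPD1 and less for the others. Most of them lay on HSPE1P25, with mean counts of 362 in siNT and 392 in siCHKA. Adding pseudogene reads to each member left the counts at 22 lower and 4 higher. Reads that align to both a member and a copy were left out of the counts, so this addition cannot show what they would change.

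Of the heat shock factors, HSF1 did not pass the threshold and HSF2 fell slightly. HSF1 was measured at 80.2 to 95.3 CPM with a median of 84.5 in siCHKA and at 80.4 to 93.3 CPM with a median of 82.6 in siNT. The groups covered nearly the same range (log2 fold change 0.04 ± 0.05, adjusted p = 0.57). HSF2 was measured at 25.9 to 28.2 CPM with a median of 26.8 in siCHKA and at 27.3 to 31.8 CPM with a median of 30.1 in siNT. Its groups overlapped, although its fall passed the threshold (log2 fold change -0.16 ± 0.05, adjusted p = 0.0138), and the call held in 21 of 24 alternatives. These are transcript levels, and the activity of HSF1 is set largely on the protein.

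The siCHKA samples differed among themselves. As log2 differences from the siNT mean, HSP90AA1 stood at -0.24, -0.36 and -0.35 in replicates 1, 3 and 5 and at -0.62, -0.70 and -0.67 in replicates 2, 4 and 6. FKBP4 stood at -0.32, -0.37 and -0.24 in replicates 1, 3 and 5 and at -0.59, -0.61 and -0.59 in replicates 2, 4 and 6, and HSPH1 had the same order. BAG1 did not, its 6 values lying between -1.09 and -0.99, and PTGES3 stood at -0.92 to -0.73 with replicate 2 the least changed. The median over the members was -0.13, -0.12 and -0.20 in replicates 1, 3 and 5 and -0.30, -0.32 and -0.33 in replicates 2, 4 and 6. These 2 sets were recognized from the data and are not groups of the study.

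The comparison was therefore repeated against the 6 siNT samples with each set left out. Because the sets were recognized from these same counts, the calls and adjusted p-values of these fits are descriptive only. Without replicates 2, 4 and 6, 19 members were lower and 5 higher with a median log2 fold change of -0.14. Without replicates 1, 3 and 5, 26 were lower and 3 higher with a median of -0.34. In both, 19 of the 22 lower and 3 of the 4 higher calls held. HSP90AA1 moved from -0.31 to -0.67 and HSPH1 from -0.26 to -0.59 between these fits, HSP90AB1 from -0.51 to -0.68, BAG1 from -1.02 to -1.06 and PTGES3 from -0.86 to -0.78, all past the threshold in both. HSPA4L and AHSA1 lost their calls without replicates 2, 4 and 6 (-0.04 and -0.12), BAG5 lost its call without replicates 1, 3 and 5 (0.02), and PPP5C lost it in both. NUDC was past the threshold in opposite directions, at 0.16 without replicates 2, 4 and 6 (adjusted p = 0.0193) and at -0.16 without replicates 1, 3 and 5 (adjusted p = 0.0171). HSPA4 was past it at -0.26 without replicates 1, 3 and 5 (adjusted p = 0.000836) and in no other of the 24 alternatives. BAG6, TRAP1 and HSPB8 were also called lower without replicates 1, 3 and 5, at -0.24, -0.19 and -0.69. With a single sample left out, TRAP1 was called lower without siCHKA replicate 3 (-0.12, adjusted p = 0.0444) and BAG6 without siCHKA replicate 5 (-0.15, adjusted p = 0.0309).

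**Figure D3:**
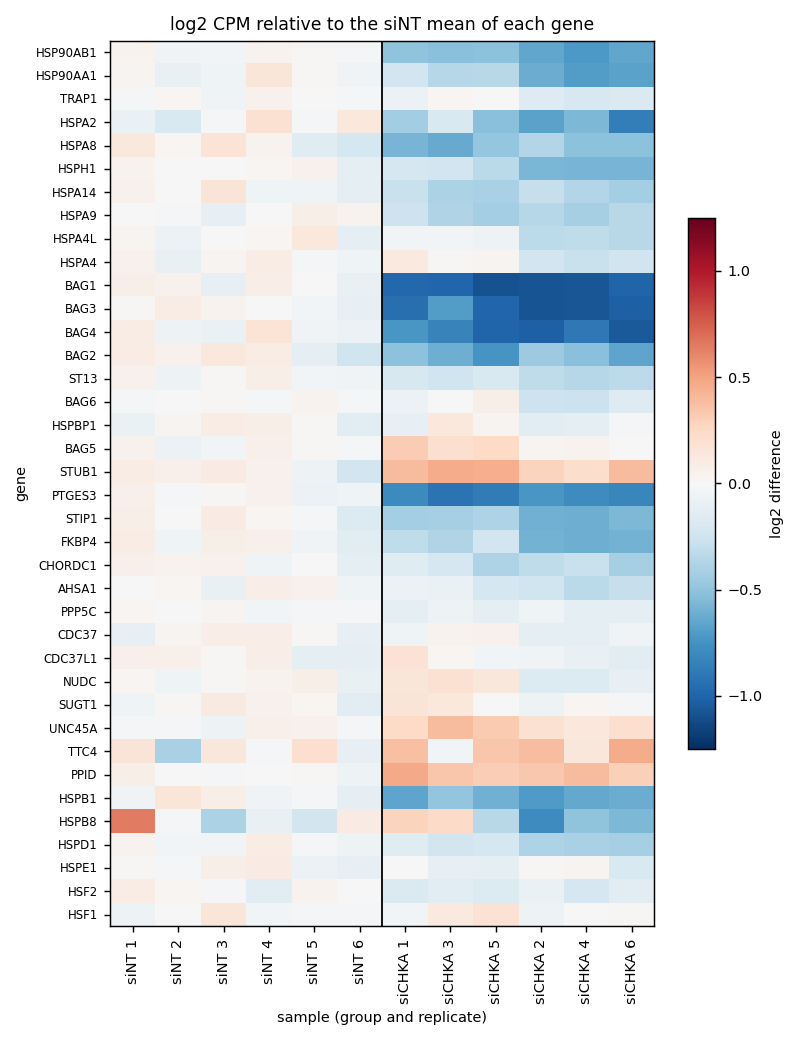
Log2 CPM of each member (rows) in each of the 12 samples (columns, siCHKA replicates ordered 1, 3, 5, 2, 4, 6) relative to the siNT mean of the gene, blue for lower and red for higher. The rows of BAG1, BAG3, BAG4 and PTGES3 are dark in all 6 siCHKA samples, while HSP90AA1, FKBP4 and HSPH1 are darker in replicates 2, 4 and 6.

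The remaining chaperone genes were described by a list of 55 further heat shock and cochaperone genes, of which 53 had an identifier in the files and 46 were tested. Of these 17 were lower and 7 higher, against the 30.1% and 32.1% of all tested genes given above, with a median log2 fold change of -0.10. The genes with the smallest p among the lower ones were TOMM34, a cochaperone of mitochondrial import (-0.83 on the log2 scale), HSPA13, a microsomal HSP70 relative (-1.10), CLPB, a mitochondrial disaggregase (-0.66), and NUDCD1, a relative of NUDC (-0.59). Those among the higher ones were FLCN (0.77) and FNIP1 (0.51), whose products form a complex that binds HSP90, HSPB7, a small heat shock protein (1.14, from 0.583 ± 0.132 CPM in siNT to 1.26 ± 0.423 CPM in siCHKA, SD, n = 6), and SGTB, an HSP70-binding cochaperone (0.28). The classical stress-inducible genes were looked up after their values were seen. HSPA1B had a log2 fold change of -0.22 at an adjusted p of 0.03 that held in 16 of 24 alternatives. HSPA1A had one of -0.17 at an adjusted p of 0.341 and DNAJB1, an HSP40, of -0.14 at an adjusted p of 0.0522. Of other HSP40 genes on the list, DNAJA1 was at -0.29 (adjusted p = 0.00233) and DNAJB4 at 0.00 (adjusted p = 0.966). HSPA6 had 115 reads in all and was not tested. It lay at 0.193 to 0.430 CPM in siCHKA, near the level of 3 counts, and at 0.589 to 1.11 CPM in siNT. HSPA1A and HSPA1B are near-identical copies, so that reads matching both were left out and their levels are uncertain.

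Among 42 textbook HSP90 clients, 38 were tested, 15 were lower and 11 higher against the same background, with a median log2 fold change of -0.08. The lower clients with the smallest p were kinases of the cell cycle, PLK1 (-1.52), CHEK1 (-1.50) and AURKB (-2.18), and the transcriptional repressor BCL6 (-0.45). The higher ones were AKT2 (0.48), ULK1 (0.47), RIPK1 (0.45), which are kinases of growth, autophagy and death receptor signaling, and the receptor kinase RET (1.47, at 2.24 and 0.811 CPM in siCHKA and siNT). The glucocorticoid receptor NR3C1 had 31 reads in all 12 samples and was not tested.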

How the data were processed

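RNA of 12 samples, 6 per group by the sample group label, was sequenced as single-end reads of 40 bases. Per the labels and the study's methods, the authors aligned the reads to GRCh37 (Ensembl release 64) with TopHat2 2.0.4, allowing 1 alignment per read, counted them on genes with HTSeq 0.5.3p9 and deposited raw counts in 4 files per sample. Reads with several alignments or on overlapping genes were left out. Those with several alignments were 26.1 to 30.6% of the sum of this class and reads on genes, no gene or overlapping genes. Whether counting used strand is not given in the sources used here. Exonic bases are shared with another counted gene by 20 members, so their reads may be split or lost. They include BAG5, STUB1, PPID and UNC45A, the members called higher, and lower ones such as HSP90AA1, HSPA8 and HSPD1.

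The 4 files of a sample differed by no more than sampling noise (chi-square per degree of freedom 0.986 to 1.01) and were summed. Genes were named by Ensembl identifier through GENCODE release 44 (82.8% of identifiers), whose GRCh38 coordinates and canonical transcript lengths are printed. edgeR 4.0.16 in R 4.3.3 was run with filterByExpr, TMM and the quasi-likelihood test without covariates on all genes, with Benjamini-Hochberg adjustment. CPM use TMM library sizes, and log2 CPM a prior count of 2. Replicate numbers were not used to pair the samples. Of 6 same-numbered correlations of deviations, from -0.396 to 0.321, 2 exceeded 0.1. All of siCHKA replicates 1, 3 and 5 correlated best with siNT replicate 4, and 2, 4 and 6 with siNT replicate 2. The siCHKA sets thus shape these values, which cannot settle whether the numbers pair samples.

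The members and lists were chosen with earlier results of these data known. Values per group were given for members past the threshold by at least 0.5 on the log2 scale and for HSP90AA1, HSP90AB1, HSPA8, HSF1 and HSF2, and of the other lists for at most the 4 smallest p-values in each direction and NR3C1. A planned result is not reported here. The ratios of paralogs, the promoter search and the ranges given for STUB1, PPID and UNC45A were added after the values were seen. So were FKBP5 and the stress-inducible and HSP40 genes named above. Alternatives were RLE normalization, DESeq2 1.42.0, limma-voom (limma 3.58.1), a filter of at least 10 counts per sample or none, the replicate block, replicates 1 to 3 or 4 to 6 only, each siCHKA set left out, each sample left out, 1 count file per sample, and pseudogene reads added.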

Additional observations from a re-analysis of the deposited data

Results flagged for a closer look

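Among 76 sets of 6 values (each member in each group), 3 had a sample whose gap to its nearest neighbor was a large part of the whole range, against about 1 in 20, or 3.8, from chance alone. HSPH1 in siNT had its lowest value in replicate 6, and the gap was 0.681 of the range on the log2 scale. BAG3 in siCHKA had its highest value in replicate 3, with a gap of 0.634 of the range. HSF1 in siNT had its highest value in replicate 3, with a gap of 0.746 of the range.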

How the results depend on the processing

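Over 24 alternatives, 19 of the 26 called members kept their direction and call throughout, and none of the 26 changed direction. Calls were lost in at least 1 alternative by HSPA2, HSPA4L, BAG5, PPP5C, AHSA1, UNC45A and HSF2. The replicate block, which pairs samples by number only, gave 21 lower and 4 higher members (PPP5C lost its call, adjusted p = 0.0802), 17 and 7 of the other chaperone genes, and 16 and 9 clients. The median of the members was -0.15 with replicates 1 to 3 and -0.31 with replicates 4 to 6, and -0.14 and -0.34 with either siCHKA set left out. With replicates 4 to 6 only, 2 members, 4 other chaperone genes and 7 clients were higher. Leaving out 1 sample at a time gave 20 to 23 lower and 3 to 4 higher members and medians from -0.26 to -0.18, and the higher call lost was that of BAG5. With 1 count file per sample, 18 members were lower. Fold changes that changed sign were all of members not past the threshold. Without siCHKA replicates 2, 4 and 6 they were HSPA4 at 0.06, BAG6 at 0.01, HSPBP1 at 0.02, CDC37 at 0.02, CDC37L1 at 0.06 and HSPB8 at 0.13. Without replicates 1, 3 and 5 they were SUGT1 at -0.03, NUDC at -0.16 and HSF1 at -0.02. CDC37L1 was at 0.01 with at least 10 counts in every sample and 0.00 with replicates 1 to 3, HSF1 at -0.03 with replicates 1 to 3, HSPBP1 at 0.01 and CDC37 at 0.04 with 1 count file, and NUDC at -0.02 without a filter and -0.06 with replicates 4 to 6. With 1 sample left out, NUDC lay between -0.03 and 0.05 and CDC37L1 between -0.06 and 0.01. The cause of these changes was not tested. Depth limits HSPA2, HSPB8 and TTC4, with 238 to 600 reads each.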
